A study of Mus musculus with 14 samples.

Results

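The transcriptome of cells carrying the TIN mutant of naked mole rat TRF1 was compared with that of cells carrying the GLAD mutant, both kept at 1% oxygen (hypoxia). The cells were tMEF, mouse embryonic fibroblasts transformed so that they keep dividing, in which the mouse telomere protein TRF1 had been replaced by a mutant naked mole rat TRF1. The substitution in TIN was Ala105Thr, and those in GLAD were Glu69Lys, Val70Ala and Ala75Thr. All cells of this comparison therefore lacked unmodified mouse TRF1, as the labels describe them, and differed by label only in the form of naked mole rat TRF1. The comparison used 4 of the 14 bulk RNA-seq libraries of the series, libraries A and B of TIN hypoxia and libraries A and B of GLAD hypoxia. Libraries of the same mutants at atmospheric oxygen (normoxia), 2 of TIN and 2 of GLAD, served to ask whether a difference depended on oxygen. All genes at 1 CPM or more in 2 or more libraries were compared, 16157 of the 52636 genes in the table. CPM is the read count of a gene scaled to a common total per library.

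TRF1, encoded by Terf1 in the mouse, binds the double-stranded repeats of telomeres as part of shelterin, the protein complex that caps chromosome ends. Shelterin keeps chromosome ends from being read as broken DNA, and cells with damaged or uncapped telomeres can switch on p53 and, through nucleic acid sensors in the cytoplasm, type I interferon genes. Low oxygen stabilises the hypoxia-inducible factors (HIF), which raise genes of glycolysis, of blood vessel growth and of collagen modification. Fibroblasts are the main makers of collagen and other extracellular matrix.

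The 4 hypoxia libraries held an estimated 12279400 and 13712319 reads in TIN and 14820665 and 12908542 in GLAD, from the spacing of the low values. A count of 0 allowed up to 3 reads, 0.1998 to 0.2518 CPM over the 14 libraries, counting error only. The standard deviation of a single library, taken from the A minus B differences, was 0.087 in TIN hypoxia and 0.099 in GLAD hypoxia. It is on the log2 scale, over 11870 genes. The labels do not say that A and B came from separate cultures, so the spread behind the p-values is possibly only technical. That spread was pooled over all 14 libraries of 7 groups, and the largest standard deviation was 0.212, in wild type in normoxia. A mutant could also be a single cell line, in which case differences between lines and effects of the substitutions cannot be told apart. In bulk RNA, fewer cells of a type and less RNA per cell cannot be told apart either.

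The fibroblast label was checked against 13 markers, 12 of which were tested. Vim, the intermediate filament of mesenchymal cells, did not pass the test between mutants (0.05 ± 0.08 on the log2 scale), but was higher in TIN after the correction for transcript length and GC content described below (0.59). The collagen genes Col1a1 and Col1a2 were among the abundant genes of every library, and Thy1 lay at or under the floor in all 4. Of the tested fibroblast markers 10 were lower and 1, S100a4, was higher in TIN. Of the markers of other cell types, the defining genes Epcam and Cdh1 of epithelium, Pecam1 and Cdh5 of endothelium, Ptprc of blood cells, Myod1 of muscle, Rbfox3 of neurons and Adipoq of fat cells were at or near 0, but the lists also held genes above 1 CPM. The summed level of the epithelial list was 60.3 and 62.1 CPM in TIN, against 35.6 and 38.6 CPM in GLAD, nearly all of it the keratin Krt19. The myeloid list summed to 75.8 and 71.3 CPM in TIN, against 72 and 74.4 CPM in GLAD, mostly Cd68 and Csf1r, neither of them called, and the fat cell list to 39.7 and 40.2 CPM in TIN, against 57.6 and 56.5 CPM in GLAD. Fabp4, a fatty acid carrier, was the main part of the fat cell sum and was lower in TIN (-0.87 ± 0.19). The skeletal muscle list summed to 7.12 and 6.65 CPM in TIN, against 3.73 and 3.25 CPM in GLAD. The endothelial list summed to 20.01 and 20.8 CPM in TIN, against 34.8 and 38 CPM in GLAD. The neural list is taken up with the largest differences below. The part of these cell type markers in the results was not tested.

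The mutants differed across much of the transcriptome. Among the listed genes, 38 of 40 interferon effectors, 14 of 20 collagens and 18 of 28 p53 targets were lower in TIN than in GLAD, and 60 of 63 nuclear genes of mitochondrial respiration, 50 of 50 of ribosomal proteins, 33 of 35 of mitosis and 21 of 24 of sterol synthesis were higher. Differences are given as TIN minus GLAD of log2(scaled CPM + 0.5) with the standard error of the model, and a gene was called when its limma p adjusted by the Benjamini-Hochberg method over all genes was under 0.05. Levels are CPM after scaling by trimmed mean of M values. Of the 16157 genes 10180 were called, 63.0%, of which 4933 were higher in TIN (30.5%) and 5247 lower (32.5%). At least 2-fold higher were 735 genes (4.55%) and at least 2-fold lower 1669 (10.3%). The median difference over all genes was -0.01, and the libraries of the mutants did not overlap for 84.4% of the genes. Every share below should be read against these. The fit was repeated after trends on transcript length and GC content had been removed within each library, and a value after this correction is given where it differed by over 1.5 times or changed a call.

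In normoxia 8283 genes were called between the same mutants, 51.3%. The group means came from other libraries than those of the hypoxia comparison, but both comparisons shared the filter, the scaling and 1 estimate of spread. Across genes, the hypoxia and normoxia differences had a Pearson correlation of 0.736 over 16157 genes, which are not independent replicates. In both comparisons 5546 genes (34.3%) were called with the same direction and 498 (3.08%) with opposite directions. Whether the difference itself depended on oxygen was tested by an interaction, the hypoxia difference less the normoxia difference. It was called for 5527 genes, 34.2%, positive for 2853 (17.7%) and negative for 2674 (16.6%).

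**Figure D1:**
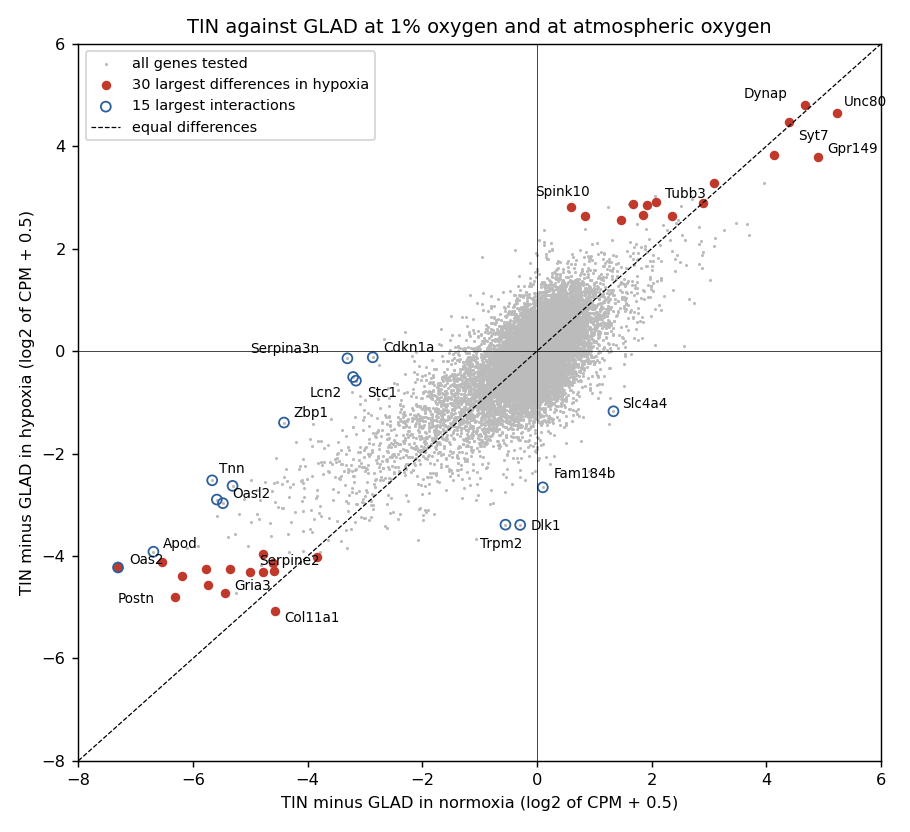
Difference of each tested gene between TIN and GLAD in hypoxia (vertical axis) against that in normoxia (horizontal axis), both in log2 of CPM + 0.5. Red points are the 30 genes with the largest rises and falls named by the rule, blue rings the 15 largest interactions, and the dashed line marks equal differences. Oas2 lies at -4.22 in hypoxia and -7.31 in normoxia, and Dlk1 at -3.39 and -0.29.

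Genes that interferon turns on were lower in TIN almost as a block. Of 40 effectors, the antiviral proteins made in response to interferon, 38 were lower and 2 higher in TIN, against 32.5% and 30.5% of all genes, and 36 were at least 2-fold lower. Their median difference was -2.29, against -0.01 over all genes. Oas2, which makes the 2-5A signal that activates RNase L, had 12.2 and 12.3 CPM in TIN, against 232 and 244 CPM in GLAD. The GLAD libraries were far above the TIN libraries with no overlap, 18.7 times as high on the fitted scale of CPM + 0.5, which understates folds of low genes (-4.22 ± 0.08, limma adjusted p = 5.3e-17). Its relative Oas3 had 0.502 and 1.05 CPM in TIN and 23.6 and 24.4 CPM in GLAD (-4.30 ± 0.17, limma adjusted p = 9.7e-13). Ifit1, which binds foreign RNA ends, stood at 58.3 and 57.7 CPM in TIN and 277 and 274 CPM in GLAD. Unlike Oas3, it kept a substantial level in TIN, and its difference was -2.24 ± 0.07 (limma adjusted p = 8.2e-14). Isg15, the ubiquitin-like modifier, had 78 and 74.4 CPM in TIN and 256 and 265 CPM in GLAD, a difference of -1.77 ± 0.09 (limma adjusted p = 1.8e-11).

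Gbp7 and Iigp1, interferon-induced GTPases that attack the vacuoles of intracellular parasites, were chosen for the size of their falls. Gbp7 had 7.87 and 7.25 CPM in TIN, against 134 and 117 CPM in GLAD (-3.96 ± 0.12, limma adjusted p = 3.7e-14), and Iigp1 3.96 and 5.7 CPM in TIN, against 94.1 and 88 CPM in GLAD (-4.12 ± 0.14). Gbp9 and the Trim30 pair, outside the list, were among the 15 largest falls, with -4.56 for Gbp9, -4.38 for Trim30a and -4.25 for Trim30d. Guanylate-binding genes, Trim30 genes and some, but not all, Oas genes have close copies, so the split of reads among such copies is uncertain. The members that rose were Ifitm1 (2.83 ± 0.28) and Ifitm2 (0.42 ± 0.10), membrane proteins that restrict virus entry, and Ifitm2 was not called after the correction (0.12). Ifitm1 had 7.47 and 5.8 CPM in TIN and 0.492 and 0.509 CPM in GLAD, under 1 CPM in both GLAD libraries and well above it in both TIN libraries.

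Promoters of 4 effectors that differ between the mutants are shown because the interferon-stimulated response element (ISRE), bound by transcription factors that interferon activates, is the known DNA element of this response. The sequences are from RefSeq, build GRCm38.p6, 250 bases before to 50 after the annotated start, written 5′ to 3′ on the gene's strand. Capitals mark matches to the ISRE core, GAAA followed by any 2 bases and GAAA, on either strand, and overlapping matches run together. The Ifit1 window is chr19:34640639-34640938 on the plus strand with 2 matches, the Isg15 window chr4:156200769-156201068 on the minus strand with 3, the Oas3 window chr5:120777610-120777909 on the minus strand with 1, and the Gbp7 window chr3:142530086-142530385 on the plus strand with 1.
Ifit1: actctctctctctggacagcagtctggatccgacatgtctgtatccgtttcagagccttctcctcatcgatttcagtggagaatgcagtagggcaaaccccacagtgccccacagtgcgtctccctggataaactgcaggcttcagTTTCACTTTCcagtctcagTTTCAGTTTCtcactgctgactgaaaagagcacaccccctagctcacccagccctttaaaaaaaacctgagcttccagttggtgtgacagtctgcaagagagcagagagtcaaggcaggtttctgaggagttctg
Isg15: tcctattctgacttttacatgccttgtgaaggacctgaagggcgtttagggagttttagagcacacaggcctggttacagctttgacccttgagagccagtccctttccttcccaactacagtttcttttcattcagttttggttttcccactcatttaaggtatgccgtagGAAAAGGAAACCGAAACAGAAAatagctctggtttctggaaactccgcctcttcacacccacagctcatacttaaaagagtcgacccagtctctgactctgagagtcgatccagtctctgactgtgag
Oas3: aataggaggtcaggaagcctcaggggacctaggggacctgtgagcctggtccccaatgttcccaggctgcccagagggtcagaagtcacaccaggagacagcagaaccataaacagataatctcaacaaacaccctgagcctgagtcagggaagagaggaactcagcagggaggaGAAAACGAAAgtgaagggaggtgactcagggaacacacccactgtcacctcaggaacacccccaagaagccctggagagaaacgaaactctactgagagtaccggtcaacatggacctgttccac
Gbp7: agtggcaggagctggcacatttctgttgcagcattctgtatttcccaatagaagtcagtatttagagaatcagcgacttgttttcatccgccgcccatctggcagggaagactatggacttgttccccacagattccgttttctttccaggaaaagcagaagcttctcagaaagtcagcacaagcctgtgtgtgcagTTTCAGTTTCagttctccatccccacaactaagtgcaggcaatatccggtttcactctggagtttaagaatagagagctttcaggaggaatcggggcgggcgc
The first match began 104 bases before the start in Ifit1, 78 in Isg15, 75 in Oas3 and 53 in Gbp7.

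Of 10922 tested genes matched by symbol to a promoter in the table, 404 (3.7%) held this core, against 3.44% of all 32851 promoters of the same length. The share was 8.88% of the genes at least 2-fold lower in TIN (94 of 1059), 13.9% of those at least 4-fold lower (35 of 252) and 2.84% of those at least 2-fold higher (12 of 423). Among the interferon effectors 18 of 30 matched promoters held it, among class I antigen presentation genes 4 of 12 (33.3%), and among collagens 0 of 16. A match is a run of letters and not a measured binding site.

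The interferon signalling genes had a smaller median difference than the effectors. Of 20 tested, 15 were lower and 4 higher, with a median of -0.47. Irf7, the transcription factor that amplifies type I interferon, had 73.4 and 76.4 CPM in TIN, against 535 and 583 CPM in GLAD (-2.89 ± 0.08, limma adjusted p = 2e-14). Stat2 (-2.01), Irf9 (-1.25) and the feedback inhibitor Usp18 (-2.66) fell as well. The receptor chains fell by less, with -0.74 for Ifnar1 and -0.86 for Ifnar2 (-0.56 after the correction). Ifnb1, interferon beta itself, had 0.201 and 0 CPM in TIN and 1.97 and 0.661 CPM in GLAD (-1.52 ± 0.29, limma adjusted p = 0.0002), or -0.97 without GLAD library A. Irf3, Irf5, Socs1 and Socs3 rose, by 0.86, 0.65, 0.70 and 0.76 (Socs3 by 0.48 after the correction).

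Among sensors of foreign nucleic acid, 8 of 12 were lower and 3 higher, with a median of -1.44. The RNA sensors led the falls. Dhx58 had 13.7 and 14.1 CPM in TIN and 129.5 and 132 CPM in GLAD (-3.19 ± 0.09, limma adjusted p = 7.7e-15), and Tlr3 4.01 and 4.2 CPM in TIN and 36.5 and 34.8 CPM in GLAD (-2.97 ± 0.13). Ifih1, which encodes MDA5, and Ddx58, which encodes RIG-I, differed by -2.32 and -2.01. Zbp1, a sensor of left-handed Z-form nucleic acid, had 16.4 and 17.7 CPM in TIN and 45.8 and 45.1 CPM in GLAD (-1.39 ± 0.14, limma adjusted p = 2.4e-07), or -0.87 after the correction. The adaptor genes went the other way by less than 2-fold, with 0.45 for Mavs (0.83 after the correction) and 0.47 for Tmem173, which encodes STING (0.25 after the correction). Rnaseh2b, a subunit of the enzyme that removes ribonucleotides from DNA, rose by 0.77.

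All 14 genes of class I antigen presentation were lower in TIN, 10 of them at least 2-fold, with a median of -1.30. Nlrc5, the activator of class I genes, had 2.81 and 2.7 CPM in TIN and 24 and 22.6 CPM in GLAD (-2.87 ± 0.13, limma adjusted p = 4.1e-12). The immunoproteasome genes Psmb8 and Psmb9 differed by -2.30 and -2.49, and Tap1, the peptide transporter, by -2.16. H2-K1, a class I heavy chain with close copies, differed by -1.32, and B2m, its light chain, by -0.82. Cytokines and acute phase genes were mixed, with 13 lower and 6 higher of 26. Ccl5, a chemokine for T cells, had 22.8 and 21.1 CPM in TIN and 145 and 156 CPM in GLAD (-2.75 ± 0.10, limma adjusted p = 2e-13), while Il11 had 15.8 and 16.8 CPM in TIN and 3 and 3.35 CPM in GLAD (2.19 ± 0.20, limma adjusted p = 5.4e-08). Complement C3 was lower in TIN by the same order as Ccl5 (-2.23 ± 0.08). Il6 had 7.07 and 8.4 CPM in TIN and 9.29 and 7.68 CPM in GLAD, ranges that overlapped, and was not called (-0.12 ± 0.20).

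The interferon gap between the mutants was smaller in hypoxia than in normoxia. The median of the 40 effectors was -2.29 in hypoxia and -3.69 in normoxia, and the interaction was called positive for 33 and negative for 1 of them, against 17.7% and 16.6% of all genes. All 14 class I genes had a positive call, 12 after the correction, with medians of -1.30 in hypoxia and -2.61 in normoxia. The levels behind this differed within both mutants. Oas2 had 12.2 and 12.3 CPM in TIN hypoxia and 232 and 244 CPM in GLAD hypoxia, and 2 and 1.72 CPM in TIN normoxia and 369 and 377 CPM in GLAD normoxia (interaction 3.08 ± 0.11, limma adjusted p = 1e-11). It was thus higher at 1% oxygen than at atmospheric oxygen in TIN and lower in GLAD. Irf7 had 73.4 and 76.4 CPM in TIN hypoxia and 535 and 583 CPM in GLAD hypoxia, and 14.5 and 15.6 CPM in TIN normoxia and 508 and 561 CPM in GLAD normoxia (interaction 2.21 ± 0.12, limma adjusted p = 8e-10). Here the GLAD libraries were close at both oxygen levels and the TIN libraries were not. Zbp1 behaved as Irf7 did, with 16.4 and 17.7 CPM in TIN hypoxia, 45.8 and 45.1 CPM in GLAD hypoxia, 2.3 and 1.33 CPM in TIN normoxia and 46.4 and 48.9 CPM in GLAD normoxia (interaction 3.02 ± 0.20, limma adjusted p = 1.4e-08). Oas3 and Tlr3 did not have a called interaction (0.29 ± 0.24 and 0.32 ± 0.19).

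**Figure D2:**
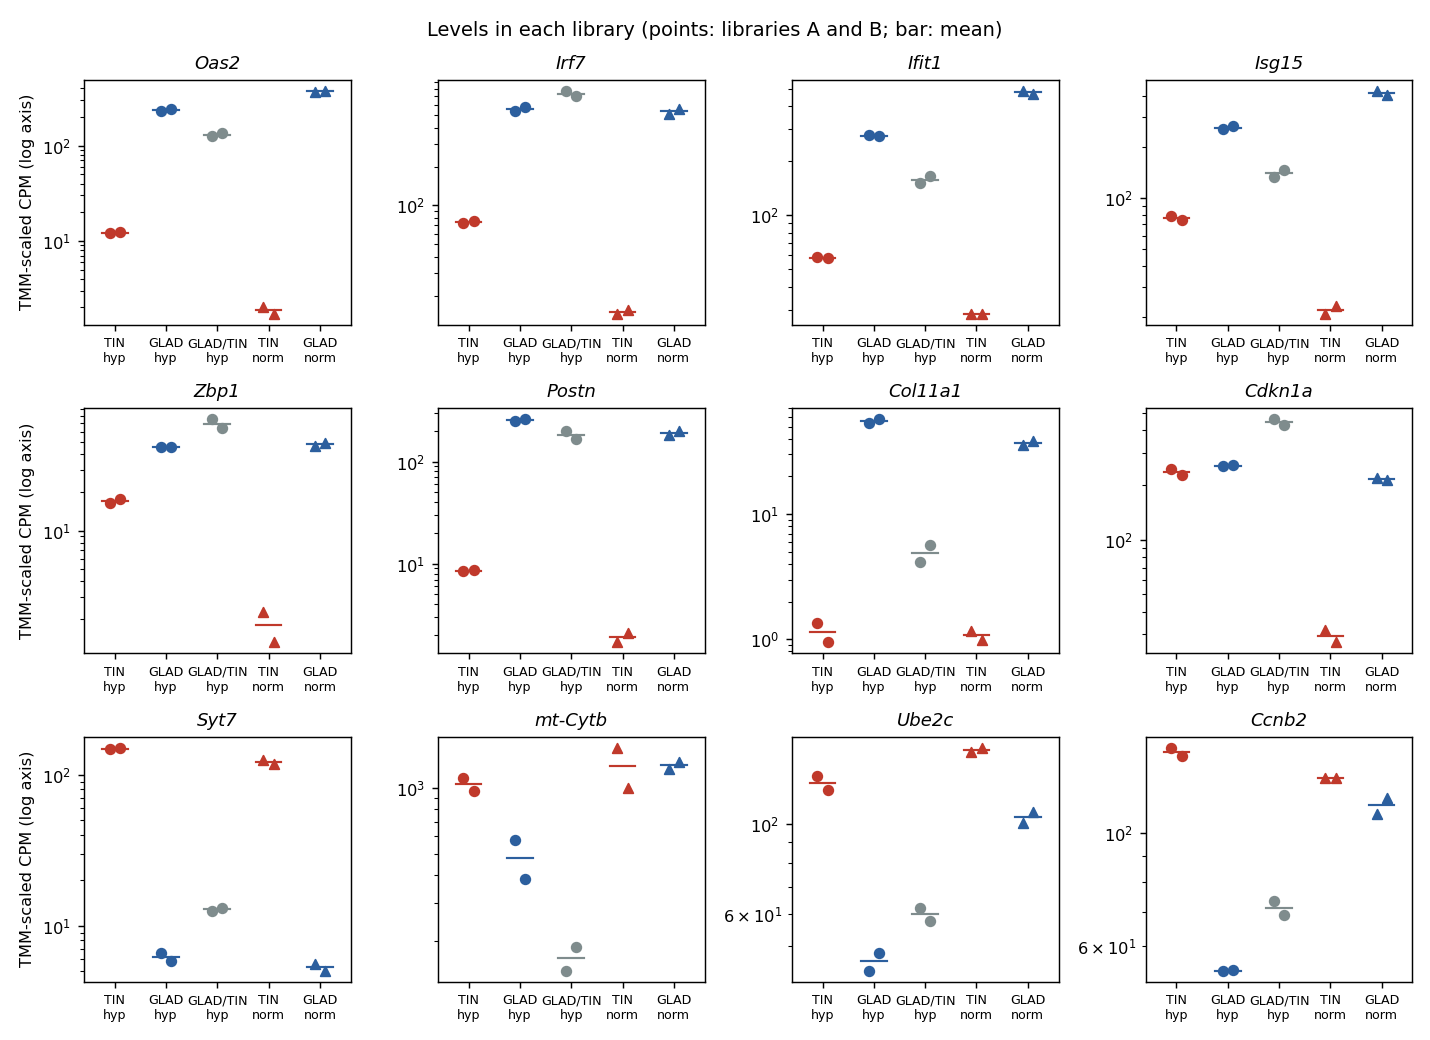
Level of 12 named genes in each library, as scaled CPM on a log axis, with TIN in red, GLAD in blue and the GLAD/TIN double mutant in grey. Circles are hypoxia and triangles normoxia libraries, and bars are group means. Oas2 lies at 12.2 and 12.3 in TIN hypoxia and 232 and 244 in GLAD hypoxia, while Cdkn1a lies at 244 and 226 and 253 and 257.

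Extracellular matrix genes were mostly lower in TIN. Of 20 collagens, 14 were lower, 12 of them at least 2-fold, and 3 higher, with a median of -1.12. Col11a1, a fibrillar collagen of cartilage, had the largest fall of any gene named, with 1.35 and 0.95 CPM in TIN and 53 and 57.2 CPM in GLAD (-5.08 ± 0.19, limma adjusted p = 2.8e-13). The main chains of collagen type I also fell. Col1a1 had 895 and 928 CPM in TIN and 2298 and 2846 CPM in GLAD (-1.49 ± 0.10, limma adjusted p = 1.7e-09), and Col1a2 419.5 and 414 CPM in TIN and 1255 and 1450.0 CPM in GLAD (-1.69 ± 0.08). Col5a2 differed by -1.97 and Col12a1 by -1.71, whereas Col15a1 (1.34), Col7a1 (0.81) and Col4a1 (0.45) rose.

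Of 28 matrix glycoproteins and proteoglycans, 19 were lower and 3 higher, with a median of -0.90. Postn, periostin, had 8.43 and 8.71 CPM in TIN and 249 and 258 CPM in GLAD, 28 times as high in GLAD on the scale of CPM + 0.5 (-4.81 ± 0.10, limma adjusted p = 2.3e-16). Decorin (Dcn), which binds collagen fibrils, had 35.2 and 34 CPM in TIN and 348 and 351 CPM in GLAD (-3.32 ± 0.07, limma adjusted p = 4.2e-16). The related proteoglycans Lum and Ogn fell by similar amounts, at -3.52 and -2.93, and so did Kera at -4.31. Fbn2, a microfibril protein, had 7.12 and 5.85 CPM in TIN and 115 and 129.7 CPM in GLAD (-4.14 ± 0.12, limma adjusted p = 1.4e-14). Thbs2, which encodes thrombospondin-2, went the other way, with 78.8 and 85.3 CPM in TIN and 23.6 and 25.6 CPM in GLAD (1.72 ± 0.11).

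Matrix proteases and their inhibitors were lower for 11 and higher for 5 of 17, with a median of -0.76, or -0.28 after the correction. Adamts2, which trims procollagen, led with 3.76 and 3.55 CPM in TIN and 37.2 and 41.8 CPM in GLAD (-3.27 ± 0.12, limma adjusted p = 4.6e-13), and Mmp2 differed by -1.84. Mmp3, which breaks down matrix, rose by 0.82. Serpine2, an inhibitor of thrombin and plasminogen activators, had 17.6 and 17.8 CPM in TIN and 356 and 371 CPM in GLAD (-4.32 ± 0.08, limma adjusted p = 5.1e-17). Its GLAD libraries were both above its TIN libraries, 19.99 times as high on the scale of CPM + 0.5. Contractile genes were 6 lower and 4 higher of 15, and their median of -0.15 was 0.18 after the correction. Myl9, a myosin light chain, had 9.33 and 10.9 CPM in TIN and 32 and 36.8 CPM in GLAD (-1.72 ± 0.15), and Acta2, smooth muscle actin, was not called (0.04 ± 0.12), but was after the correction (0.38, adjusted p = 0.039).

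The matrix lists varied in how far the gap depended on oxygen, against interactions called for 34.2% of all genes. The collagen median was -1.12 in hypoxia and -0.99 in normoxia, with 1 positive and 4 negative interactions of 20. Of the 28 glycoproteins and proteoglycans 9 had a positive and 6 a negative interaction, and of the 17 proteases and inhibitors 8 a positive and 1 a negative one. Among glycoproteins, Postn differed by -4.81 ± 0.10 in hypoxia and -6.31 ± 0.10 in normoxia (interaction 1.499 ± 0.14, limma adjusted p = 9.9e-07). Its TIN libraries had 8.43 and 8.71 CPM in hypoxia and 1.71 and 2.11 CPM in normoxia, far under GLAD at both oxygen levels.

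Growth factor signals that act on matrix cells moved in both directions. Of 20 genes of the transforming growth factor beta (TGF-beta) and bone morphogenetic protein pathway, 10 were lower and 7 higher. Among ligands, Tgfb2 had 3.36 and 4.55 CPM in TIN and 16.7 and 15.6 CPM in GLAD (-1.91 ± 0.14, or -1.24 after the correction), while Tgfb1 rose by 1.19. The receptors Tgfbr2 and Tgfbr3 fell (-1.79 and -1.49), as did the latent binding protein Ltbp2 (-1.95). The target genes Id1, Id2 and Id3 rose, by 1.43, 0.93 and 0.88. In the insulin-like growth factor (IGF) list 10 were lower and 2 higher of 17, among them Igf1 (-1.52), Igf2 (-1.60) and the binding protein Igfbp2, at 1.8 and 2.05 CPM in TIN and 27.2 and 30.8 CPM in GLAD (-3.60 ± 0.14, limma adjusted p = 5.1e-13). Igfbp6 ran opposite, with 66.7 and 64.2 CPM in TIN and 10.8 and 11.5 CPM in GLAD (2.50 ± 0.16, limma adjusted p = 4.9e-10). In the Notch list 7 were lower and 2 higher of 12, with a median of -0.70, or -0.41 after the correction. The receptor Notch3 differed by -1.99 and the target Hey1 by 2.37, with 97 and 94.2 CPM in TIN and 18.3 and 18 CPM in GLAD.

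**Figure D3:**
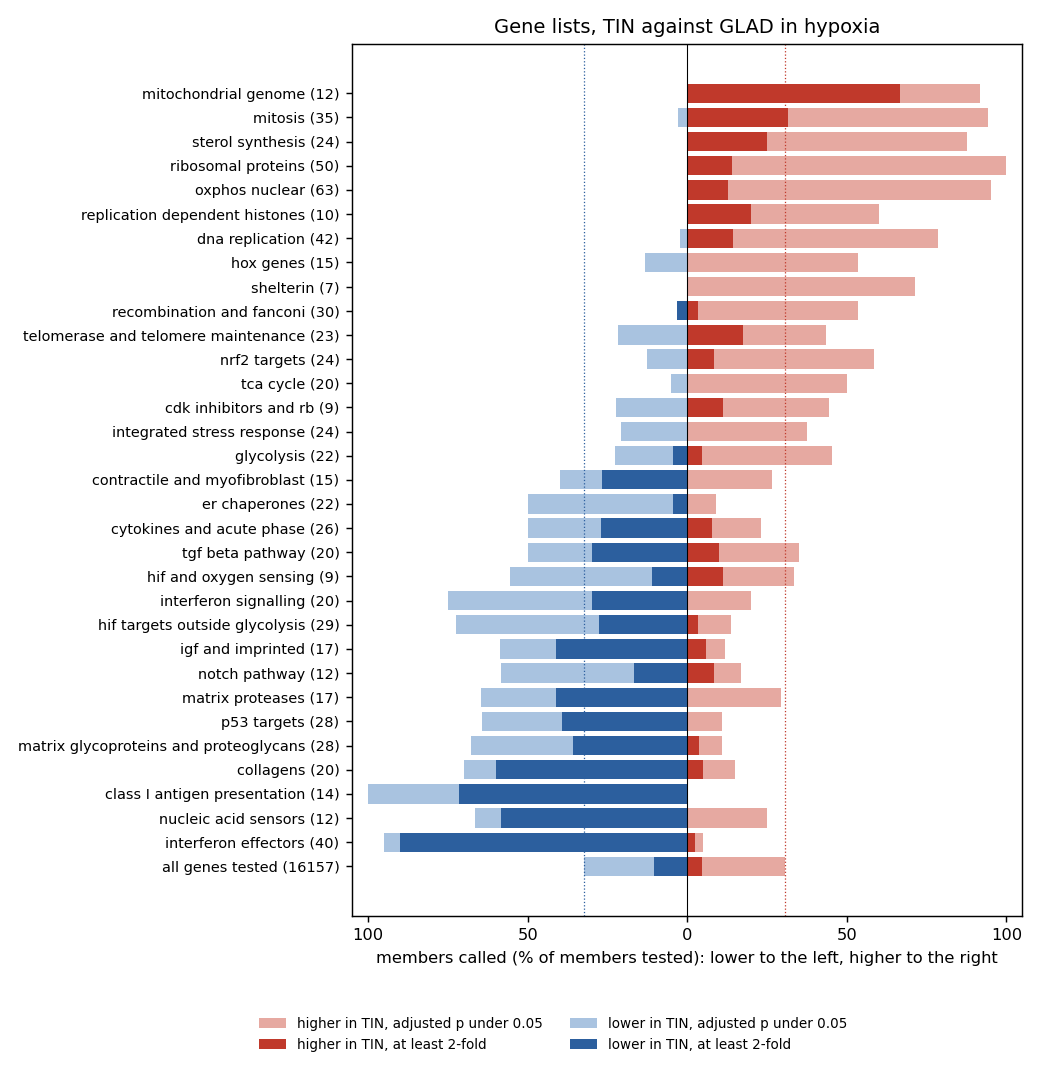
Share of the tested members of each list that were called higher in TIN (right) or lower (left) in hypoxia, in percent, with the part that differed at least 2-fold in the darker shade. The number tested stands in brackets, dotted lines mark the shares over all genes (30.5% higher and 32.5% lower), and lists run by their median difference, interferon effectors at -2.29 near the bottom and the mitochondrial genome at 1.11 at the top.

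Respiratory chain genes were higher in TIN in both genomes. Of 63 nuclear genes of oxidative phosphorylation, 60 were higher and 0 lower, with a median of 0.69. Atp5e, a small subunit of ATP synthase, had 81.8 and 81.5 CPM in TIN and 30.9 and 30.6 CPM in GLAD (1.40 ± 0.13, limma adjusted p = 7.8e-08), and Ndufb3 of complex I 44.9 and 44.4 CPM in TIN and 19.7 and 18.1 CPM in GLAD (1.22 ± 0.12). Sdha of complex II was not called (0.04 ± 0.07), but was after the correction (0.29, adjusted p = 0.0019). Of 12 protein-coding genes of the mitochondrial genome tested, 11 were higher and 0 lower, with a median of 1.11. The complex I gene mt-Nd1 had 1079 and 941 CPM in TIN and 417 and 269.9 CPM in GLAD (1.59 ± 0.19, limma adjusted p = 1.5e-06), and mt-Cytb of complex III had 1108 and 961 CPM in TIN and 576 and 383 CPM in GLAD (1.13 ± 0.18, limma adjusted p = 2.6e-05). Library A was above library B in both mutants, more so in GLAD, and the mutants did not overlap. Reads of mt-Nd6 (1.47) cannot be told from those of the opposite strand where counting is unstranded.

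The respiratory gap was larger in hypoxia than in normoxia. The median of the nuclear genes was 0.69 in hypoxia and 0.15 in normoxia, and the interaction was positive for 49 and negative for 0 of 63. After the correction it was positive for 40 and negative for 0. For the mitochondrial genome the medians were 1.11 in hypoxia and 0.00 in normoxia, with 9 positive interactions, or 7 after the correction. In mt-Cytb, TIN hypoxia had 1108 and 961 CPM and GLAD hypoxia 576 and 383 CPM, beside 1515 and 993 CPM in TIN normoxia and 1209 and 1310.0 CPM in GLAD normoxia (interaction 1.17 ± 0.25, limma adjusted p = 0.0019). The TIN normoxia libraries spanned the GLAD normoxia range. The tricarboxylic acid cycle moved less, with 10 higher and 1 lower of 20 and a median of 0.18, or 0.39 after the correction. Pdhb of pyruvate dehydrogenase (0.83, or 1.29 after the correction) and Mdh1, malate dehydrogenase (0.65), rose most.

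All 50 ribosomal protein genes were higher in TIN, with a median of 0.75 in hypoxia and 0.46 in normoxia. After the correction 47 were higher and 0 lower, and 6 in place of 17 had a positive interaction. Rps2 of the small subunit had 926 and 875 CPM in TIN and 389 and 427 CPM in GLAD (1.14 ± 0.08, limma adjusted p = 1.6e-09, or 1.79 after the correction), and Rpl35 of the large subunit 231 and 221 CPM in TIN and 94.7 and 85.1 CPM in GLAD (1.33 ± 0.11). These genes have many processed pseudogenes, which can take or add reads. Short transcripts in general were higher in TIN hypoxia. Over 16117 genes the difference had a Spearman correlation of -0.326 with transcript length in hypoxia and -0.075 in normoxia, and by 4 length classes of nearly equal size, from short to long, the median difference was 0.29, 0.12, -0.05 and -0.34. After the correction, the medians were 0.69 for nuclear respiratory genes, 1.13 for the mitochondrial genome and 0.68 for ribosomal proteins.

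Genes of cell division were higher in TIN. Of 35 mitotic genes, 33 were higher, 11 at least 2-fold, and 1 lower, with a median of 0.86. The lower one, Ect2 (-0.37, limma adjusted p = 0.046), was not called when any 1 of the 4 libraries was left out (adjusted p = 0.11 to 0.16) or after the correction. Cdca3, needed for entry into mitosis, had 195 and 192 CPM in TIN and 70.5 and 65.3 CPM in GLAD (1.505 ± 0.10, limma adjusted p = 6.1e-10). Ube2c, the ubiquitin-conjugating enzyme of the anaphase-promoting complex, had 130.5 and 121 CPM in TIN and 43.6 and 48.3 CPM in GLAD (1.44 ± 0.09), and Ccnb2, cyclin B2, 148 and 142 CPM in TIN and 53.5 and 53.6 CPM in GLAD (1.43 ± 0.07). The mutants lay more than 2-fold apart in all of these, with no overlap. The mitotic median was 0.86 in hypoxia and 0.29 in normoxia, with 26 positive and 0 negative interactions. Ccnb2 had 148 and 142 CPM in TIN hypoxia and 53.5 and 53.6 CPM in GLAD hypoxia, and 128 and 128 CPM in TIN normoxia and 109 and 118 CPM in GLAD normoxia (interaction 1.25 ± 0.10, limma adjusted p = 2.1e-07). The low group was GLAD in hypoxia.

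DNA replication genes were higher for 33 and lower for 1 of 42, with a median of 0.53 in hypoxia and 0.42 in normoxia. Rrm2, which makes deoxynucleotides, had 317 and 305 CPM in TIN and 122 and 119 CPM in GLAD (1.36 ± 0.07, limma adjusted p = 4.9e-11), and the initiation factors Gins1 and Orc6 differed by 1.27 and 1.26. Mcm4 and Mcm6 of the replicative helicase were not called (-0.04 ± 0.08 and -0.02 ± 0.07). Recombination and Fanconi genes, which repair broken and crosslinked DNA, were higher for 16 and lower for 1 of 30, with Bard1 at 1.08, or 1.65 after the correction. Of 10 histone genes 6 were higher, led by H2afx, at 148 and 143 CPM in TIN and 51 and 56.3 CPM in GLAD (1.43 ± 0.11). Most replication-dependent histone messages lack a poly(A) tail, and their recovery depends on how the libraries were made.

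Sterol synthesis genes were higher for 21 and lower for 0 of 24, with a median of 0.83 in hypoxia and 0.30 in normoxia and 13 positive interactions. Msmo1, a methylsterol oxidase that uses molecular oxygen, had 103 and 104 CPM in TIN and 30.8 and 27.6 CPM in GLAD (1.81 ± 0.11, limma adjusted p = 2.5e-10). Fdps, which makes farnesyl diphosphate, had 142 and 140.4 CPM in TIN and 54.1 and 55.3 CPM in GLAD (1.36 ± 0.08). NRF2 targets, which protect from oxidants, were higher for 14 and lower for 3 of 24, led by Taldo1 (1.02), Txn1 (1.01) and Gstp1 (0.97), while Nfe2l2, which encodes NRF2, was not called (0.02 ± 0.07), but was after the correction (0.59). The NRF2 median was 0.22, or 0.49 after the correction.

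**Figure D4:**
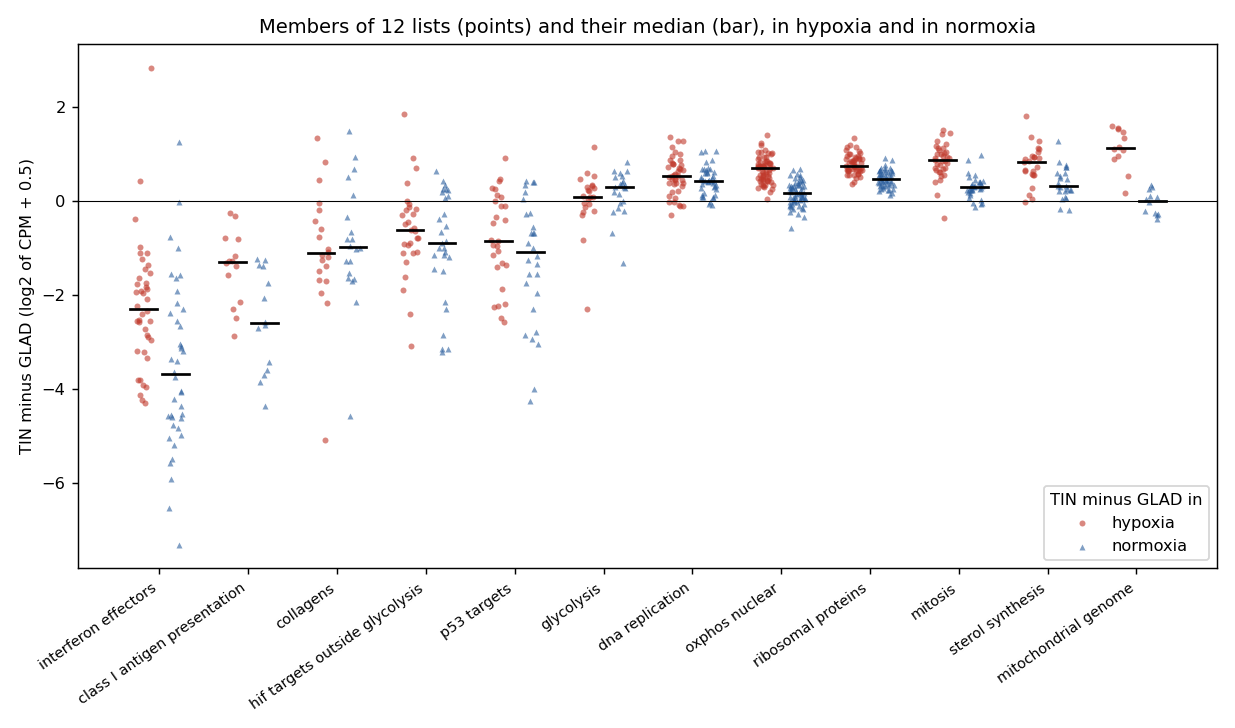
Differences of single genes between TIN and GLAD (points, log2 of CPM + 0.5) in 12 lists, in hypoxia (red circles) and in normoxia (blue triangles), with the median as a black bar. The interferon medians are -2.29 in hypoxia and -3.69 in normoxia, and those of the mitochondrial genome 1.11 and 0.00.

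Among genes of the core response to low oxygen, HIF targets outside glycolysis were mostly lower in TIN, while glycolysis genes were mixed. Of 29 HIF targets outside glycolysis, 21 were lower and 4 higher in TIN in hypoxia, against 32.5% and 30.5% of all genes, with a median of -0.62. In normoxia 20 were lower and 4 higher, with a median of -0.89. The interaction was positive for 11 and negative for 6 of them, against 17.7% and 16.6% of all genes. Car12, a carbonic anhydrase (-2.42), and 2 enzymes that modify collagen, Lox and Plod2, had the largest falls, while the other collagen enzymes in the list, P4ha1 (-0.92), P4ha2 (-0.91), Loxl2 (-0.49) and Plod1 (-0.18), fell by less than 2-fold. Lox, which crosslinks collagen, had 139 and 144 CPM in TIN and 1189 and 1227 CPM in GLAD (-3.09 ± 0.13, limma adjusted p = 1.9e-12), and Plod2, a lysyl hydroxylase, 75.7 and 78.4 CPM in TIN and 296 and 279.8 CPM in GLAD (-1.89 ± 0.11). Car9, the carbonic anhydrase used as a hypoxia marker, had 202 and 195 CPM in TIN and 588 and 637 CPM in GLAD (-1.62 ± 0.09, limma adjusted p = 1.5e-10). Normoxia levels were 3.47 and 3.24 CPM in TIN and 33.6 and 33.8 CPM in GLAD, so both mutants had far more at 1% oxygen. On the log2 scale, though not in CPM, the gap was narrower there (interaction 1.53 ± 0.13, limma adjusted p = 3.7e-07). Vegfa, the vessel growth factor, had 254 and 249.8 CPM in TIN and 264 and 245 CPM in GLAD, overlapping, and was not called (-0.01 ± 0.07), but was after the correction (0.20, adjusted p = 0.021). Ankrd37 was the exception above 2-fold, with 82.1 and 78.9 CPM in TIN and 23.6 and 20.6 CPM in GLAD (1.84 ± 0.16, limma adjusted p = 2.9e-08).

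Glycolysis genes were higher for 10 and lower for 5 of 22, with a median of 0.09, or 0.32 after the correction. Without GLAD hypoxia library A, 5 were higher. Ldha, lactate dehydrogenase, had 2834 and 2683 CPM in TIN and 1914 and 2077 CPM in GLAD (0.47 ± 0.08, limma adjusted p = 4.6e-05), and Tpi1 1845 and 1774 CPM in TIN and 1133 and 1267 CPM in GLAD (0.59 ± 0.08, or 0.24 after the correction). The glucose transporter Slc2a1 (-0.04 ± 0.07), the hexokinase Hk2 (-0.06 ± 0.10) and Pgk1 (0.04 ± 0.07) were not called, but Pgk1 was after the correction (0.38). Against these, Hk1 had 827 and 851 CPM in TIN and 1403 and 1584 CPM in GLAD (-0.83 ± 0.10), and Pfkfb3, which makes the activator of phosphofructokinase, 5.07 and 5.15 CPM in TIN and 25.8 and 28.3 CPM in GLAD (-2.29 ± 0.13, limma adjusted p = 1.6e-10). Pdk1, which holds back pyruvate dehydrogenase, was lower in TIN (-0.31 ± 0.09, limma adjusted p = 0.0046, or -0.74 after the correction). In normoxia 13 of the 22 glycolysis genes were higher and 2 lower in TIN, with a median of 0.29. Their interaction was positive for 4 and negative for 7.

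The HIF subunits themselves went in opposite directions. Hif1a had 77.3 and 79.8 CPM in TIN and 195 and 196 CPM in GLAD (-1.31 ± 0.14, limma adjusted p = 2.8e-07), whereas Epas1, which encodes HIF-2 alpha, had 29.9 and 33.6 CPM in TIN and 11.1 and 11.9 CPM in GLAD (1.43 ± 0.16, limma adjusted p = 5.7e-07). Hif1a had a negative interaction (-0.86 ± 0.19), so that it was lower in TIN to a greater extent in hypoxia. That of Epas1 (-0.74 ± 0.22, limma adjusted p = 0.017) was not called without GLAD library B (adjusted p = 0.061) or without TIN library A (adjusted p = 0.075). Of the other genes of oxygen sensing, Vhl (-0.49), Egln1 (-0.57) and Arnt (-0.44) were lower and Egln2 (0.67) higher. After the correction Vhl was not called (-0.20) and Arnt was called higher (0.24, adjusted p = 0.036). The core of the hypoxia response element, ACGTG or GCGTG on either strand, stood in 18 of 19 matched promoters of the HIF targets (94.7%) and 19 of 22 of glycolysis (86.4%), against 66.7% of all tested genes with a promoter and 43.8% of all promoters. Its share was under 66.7% in genes that differed between the mutants. It was 55.8% of those at least 2-fold lower in TIN, 48.4% of those at least 4-fold lower and 61.5% of those at least 2-fold higher.

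Of 7 shelterin genes 5 were higher in TIN, each by less than 2-fold. Terf1 had 113 and 114 CPM in TIN and 93.4 and 88 CPM in GLAD (0.32 ± 0.09, limma adjusted p = 0.0037, or 0.86 after the correction). Whether reads counted to mouse Terf1 came from remaining mouse sequence, from the naked mole rat gene or from both is not given in the sources used here, so this does not check the substitution. Tinf2, which encodes the TRF1 partner TIN2, had 79.99 and 83.5 CPM in TIN and 41.1 and 47.2 CPM in GLAD (0.88 ± 0.09, limma adjusted p = 3.2e-07). Terf2 (0.73), Acd, which encodes TPP1 (0.66), and Terf2ip, which encodes RAP1 (0.34, or 0.96 after the correction), were also higher in TIN, and the single-strand binders Pot1a (-0.05 ± 0.10) and Pot1b (0.10 ± 0.16) were not called. The shelterin median was 0.34 in both hypoxia and normoxia, and in hypoxia 0.78 after the correction. Acd, Terf2 and Terf2ip all lie on chromosome 8, whose genes had a median difference of 0.25.

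Telomerase and telomere maintenance genes were higher for 10 and lower for 5 of 23, and lower for 3 after the correction. Proteins of the telomerase RNA particle rose, with Nop10 at 42.2 and 38.3 CPM in TIN and 15.9 and 15.6 CPM in GLAD (1.33 ± 0.13, limma adjusted p = 1.8e-07), Nhp2 at 1.07 and Dkc1 at 0.34. Fen1, a flap nuclease of replication, had 323 and 315 CPM in TIN and 138 and 147 CPM in GLAD (1.16 ± 0.08), and the helicase Pif1 differed by 1.11. Atrx, which restrains recombination at telomeres (-0.75), and the tankyrases Tnks (-0.65) and Tnks2 (-0.56), which release TRF1 from telomeres, fell. After the correction these values were -0.19, -0.15 and -0.20, and Atrx and Tnks were not called. In normoxia both tankyrases were higher in TIN (0.41 and 0.42). Tert, the telomerase catalytic subunit, was under the filter.

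Targets of p53 were lower for 18, 11 of them at least 2-fold, and higher for 3 of 28, with a median of -0.85 in hypoxia and -1.09 in normoxia. After the correction the hypoxia median was -0.54. Mdm2, the ubiquitin ligase that degrades p53, had 153 and 151 CPM in TIN and 295 and 294 CPM in GLAD (-0.95 ± 0.07, limma adjusted p = 1.6e-09, or -0.54 after the correction). Perp, a membrane protein of cell death, had 2.96 and 3.25 CPM in TIN and 18.6 and 21.1 CPM in GLAD (-2.50 ± 0.17), and Ephx1 41.5 and 38.6 CPM in TIN and 182 and 209 CPM in GLAD (-2.27 ± 0.10). Cdkn1a, the p21 cell cycle inhibitor, had 244 and 226 CPM in TIN and 253 and 257 CPM in GLAD in hypoxia and was not called (-0.12 ± 0.08, limma adjusted p = 0.22), but had 31.6 and 27.1 CPM in TIN and 219 and 214 CPM in GLAD in normoxia. After the correction it was called lower in hypoxia (-0.45, adjusted p = 0.0003). Its interaction of 2.74 ± 0.12 was among the 15 largest named (limma adjusted p = 7.8e-11). Trp53 itself rose by 0.41, a call lost after the correction (0.19). Of other inhibitors of cell cycle kinases, Cdkn2d had 83.2 and 78.2 CPM in TIN and 33.8 and 32.5 CPM in GLAD (1.27 ± 0.08), and Cdkn2c rose by 0.61. Rb1, which is in the same list but is not such an inhibitor, fell (-0.53).

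Stress genes of the endoplasmic reticulum (ER) were lower for 11 and higher for 2 of 22, with a median of -0.19, or -0.03 after the correction. Sel1l of ER-associated degradation fell most (-1.27 ± 0.10), and Hspa5, the main chaperone, was not called (-0.07 ± 0.07). The integrated stress response was mixed, with 9 higher and 5 lower of 24 and a median of 0.09, or 0.28 after the correction. Its transcription factor Atf4 had 478 and 459 CPM in TIN and 259 and 260.3 CPM in GLAD (0.85 ± 0.09, limma adjusted p = 4.4e-07), while its targets Asns and Trib3 were not called (-0.02 ± 0.07 and -0.15 ± 0.11), but were after the correction (-0.30 and 0.35). Hox genes, which record position along the body, were higher for 8 and lower for 2 of 15. Hoxd13, a distal limb gene, had 170.2 and 167 CPM in TIN and 104 and 104 CPM in GLAD (0.70 ± 0.09), and Hoxa13 5.67 and 5 CPM in TIN and 9.63 and 10.3 CPM in GLAD (-0.84 ± 0.15).

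The largest rises in TIN included genes that were near absent in GLAD. Syt7, a calcium sensor of vesicle fusion, had 147 and 150.5 CPM in TIN and 6.58 and 5.85 CPM in GLAD, 22.2 times as high in TIN on the scale of CPM + 0.5 (4.47 ± 0.13, limma adjusted p = 2.6e-14). Dynap had 29.2 and 27.3 CPM in TIN and 0.541 and 0.509 CPM in GLAD (4.81 ± 0.23), and Unc80, a subunit of a neuronal sodium leak channel, 16.9 and 18.6 CPM in TIN and 0.246 and 0.203 CPM in GLAD, at about the level that a count of 0 allows (4.65 ± 0.20). In Dynap and Unc80 the GLAD libraries stayed under 1 CPM and the TIN libraries were well above it. Tubb3, neuronal beta-tubulin, had 60.5 and 58.2 CPM in TIN and 6.34 and 8.74 CPM in GLAD (2.91 ± 0.16, limma adjusted p = 6e-11). Of 6 neural markers tested 4 were higher, with Sox2 at 36.5 and 40.1 CPM in TIN and 6.98 and 6.15 CPM in GLAD (2.46 ± 0.15), and 1, Map2, was lower, at 132 and 136 CPM in TIN and 310.5 and 303 CPM in GLAD (-1.19 ± 0.09). The summed level of the neural list was 339 and 347 CPM in TIN and 376 and 378 CPM in GLAD, and the neuronal markers Rbfox3 and Dcx were at or near 0.

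The other rises among the 15 largest were Chst1, a sulfotransferase (3.84), the orphan receptor Gpr149 (3.80), the protocadherin Pcdh1 (3.29), the fatty acid ligase Acsbg1 (2.89), Npepl1 (2.88), Klra4 (2.85), Spink10 (2.82), Sdcbp2 (2.65), the corepressor Hr (2.65), Plekha2 (2.64) and Dynlt1a (2.57). Klra4 and Dynlt1a have near-identical copies, so their counts are uncertain. The interaction was called for 8 of the 15 (Npepl1, Klra4, Spink10, Sdcbp2, Plekha2, Dynlt1a, Tubb3 and Gpr149) and not for the other 7. Those of Klra4, Sdcbp2 and Tubb3 were lost without GLAD library A (adjusted p = 0.054, 0.1 and 0.058), and those of Klra4 and Sdcbp2 without TIN library A or B as well. Gria3, an AMPA receptor subunit, had 0.1 and 0.1 CPM in TIN and 16 and 14.9 CPM in GLAD (-4.73 ± 0.20, limma adjusted p = 1.9e-12), with TIN under the limit that a count of 0 allows. Ppl, which encodes the desmosome protein periplakin, had 1 and 0.9 CPM in TIN and 27.7 and 26.7 CPM in GLAD (-4.26 ± 0.14), and Itm2a 0.602 and 0.551 CPM in TIN and 18.1 and 15.9 CPM in GLAD (-4.02 ± 0.21). In these falls too, 1 mutant was near the floor.

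Some differences were present at 1% oxygen and not in normoxia. Dlk1, an imprinted Notch-like ligand, had 0.602 and 0.551 CPM in TIN hypoxia and 9.97 and 11.7 CPM in GLAD hypoxia, and 0.244 and 0.0984 CPM in TIN normoxia and 0.292 and 0.343 CPM in GLAD normoxia (interaction -3.10 ± 0.29, limma adjusted p = 1.1e-06). Trpm2, a cation channel gated by oxidative stress, showed the same order, with 3.21 and 2.3 CPM in TIN hypoxia, 33.2 and 33.4 CPM in GLAD hypoxia, 0.0978 and 0 CPM in TIN normoxia and 0.146 and 0.49 CPM in GLAD normoxia. Of these TIN and GLAD groups, both genes were high in GLAD hypoxia alone, and both were at or near the floor in normoxia. They were also high in the GLAD/TIN double mutant in hypoxia, with 30.3 and 22.1 CPM for Dlk1 and 31.3 and 25.9 CPM for Trpm2. The interaction of Trpm2 (-2.84 ± 0.39, limma adjusted p = 4.8e-05) missed the threshold with a pseudocount of 0.1 CPM (adjusted p = 0.069). Slc4a4, a bicarbonate transporter, reversed with oxygen, with 29.3 and 28.1 CPM in TIN hypoxia and 65.2 and 65.6 CPM in GLAD hypoxia, and 51.4 and 58.2 CPM in TIN normoxia and 20.9 and 21.8 CPM in GLAD normoxia (interaction -2.51 ± 0.23, limma adjusted p = 5.4e-07). Its hypoxia difference of -1.17 was -0.74 after the correction. The acute phase gene Lcn2 went the other way, with a gap that was smaller in hypoxia, at 81.2 and 81.2 CPM in TIN hypoxia, 112 and 119 CPM in GLAD hypoxia, 5.76 and 5.9 CPM in TIN normoxia and 53.4 and 62.9 CPM in GLAD normoxia (interaction 2.70 ± 0.14, limma adjusted p = 4.2e-10). Stc1, a HIF target that encodes stanniocalcin-1, had 31.4 and 34.4 CPM in TIN hypoxia and 49.8 and 48.6 CPM in GLAD hypoxia, and 0.782 and 0.197 CPM in TIN normoxia and 8.79 and 7.15 CPM in GLAD normoxia. On the log2 scale, though not in CPM, the mutants were thus closer at 1% oxygen, and TIN was near the floor in normoxia. The hypoxia difference of Stc1 (-0.58 ± 0.21, limma adjusted p = 0.023) missed the threshold when any 1 of the 4 libraries was left out. After the correction it was -0.99.

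The mutants also differed by chromosome. The median difference was 0.32 over 755 genes of chromosome 17, between 0.22 and 0.25 on chromosomes 2, 7, 8 and 19, and -0.40 over 407 genes of chromosome 18, where 59.7% of genes were lower. Chromosomes 12, 13 and 10 had medians of -0.28, -0.23 and -0.21. The same chromosomes stood out in normoxia, with 0.25 on chromosome 17 and -0.22 on chromosome 18. Of 8 tested genes of chromosome Y, 4 were called lower in TIN and 0 higher, and none of the 4 was at 0 in TIN. Ddx3y, an RNA helicase, had 10.6 and 11.2 CPM in TIN and 70.1 and 66.5 CPM in GLAD (-2.59 ± 0.18, limma adjusted p = 1.8e-09), and Uty, a histone demethylase, 3.71 and 3.45 CPM in TIN and 20.4 and 20.03 CPM in GLAD (-2.35 ± 0.18). Kdm5d (-1.60) and Eif2s3y (-1.27) followed. The part of these chromosome-wide shifts in the differences of single genes was not tested.

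**Figure D5:**
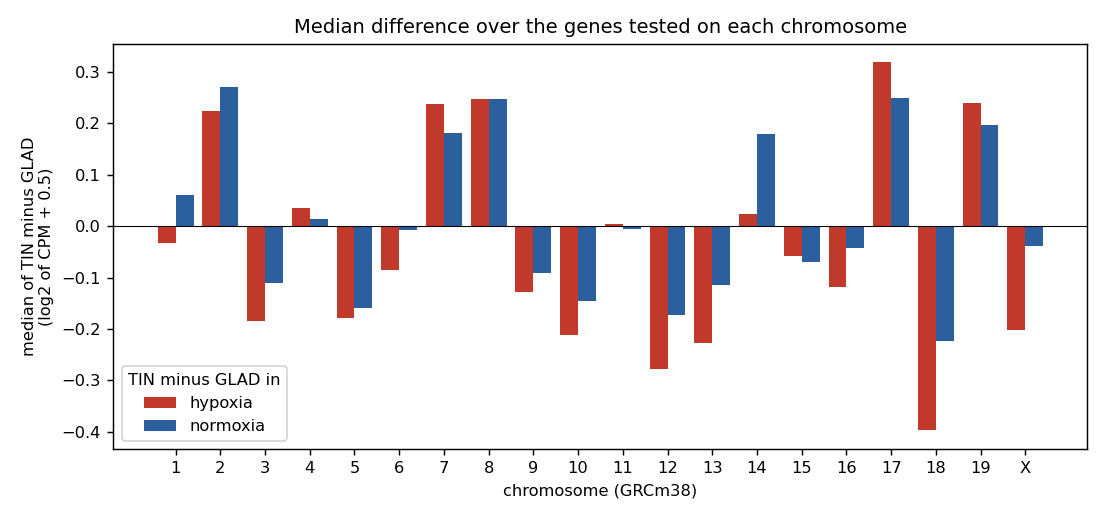
Median difference between TIN and GLAD (log2 of CPM + 0.5) over the tested genes of each autosome and of chromosome X, in hypoxia (red) and in normoxia (blue). Chromosome 17 is highest in hypoxia at 0.32 and chromosome 18 lowest at -0.40, and both keep their sign in normoxia.

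The GLAD/TIN double mutant, which carries both sets of substitutions, had libraries at 1% oxygen whose levels are set beside the single mutants as values only. Oas2 had 127 and 135 CPM in the double mutant, between TIN and GLAD. Irf7 (772 and 700.2 CPM) and Zbp1 (75.1 and 63.9 CPM) were above both. Postn (199 and 167 CPM) was nearer GLAD and Col11a1 (4.17 and 5.69 CPM) nearer TIN on the log scale. Syt7 (12.6 and 13.2 CPM), high in TIN, was nearer GLAD, as was Ube2c (62.2 and 57.8 CPM). Cdkn1a (461 and 427 CPM) was above both single mutants, and mt-Cytb (148 and 189 CPM) below both.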

How the data were processed

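RNA was measured in 14 libraries, 2 for each of 7 groups, of which the 4 TIN and GLAD libraries in hypoxia are compared here and the 4 in normoxia set beside them. The deposited values are CPM. Per the submitters' processing notes, the authors used STAR and HTSeq with GRCm38.p4 and mm10; versions, strand setting and annotation release are not given in the sources used here. Every one of the 14 value columns was mapped to a sample by its name (0 unmapped). The 2 columns of the wild-type libraries are named for mouse, although their labels give wild-type naked mole rat TRF1. These libraries enter no contrast, but they enter the filter, the scaling, the length and GC correction and the estimate of spread. With them left out of the fit, but not of the filter and scaling, no gene named by the rule changed its call. In the table, 52403 of 52636 genes had a symbol. Depth was estimated from the spacing of low values, 11915545 to 15011622 reads per library.

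CPM were scaled by TMM factors computed here (0.9477 to 1.029; 30% of log ratios and 5% of levels trimmed), 0.5 CPM was added and log2 taken, so changes of low genes are understated. Limma 3.58.1 in R 4.3.3 fitted 7 group means to all 14 libraries with a trend on mean level (7 residual and 10.6 prior degrees of freedom). Benjamini-Hochberg adjustment ran over 16157 genes in each contrast. The contrasts were TIN minus GLAD in hypoxia, the same in normoxia, and their difference. Lists are described by counts and medians, without a set test.

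The genes named are the 15 largest rises, falls and interactions among called genes with a mean of at least 5 CPM over the 4 hypoxia libraries, up to 4 called members of each list, and 19 genes set by name. Other members named as exceptions or examples were chosen after their values were seen. Some named genes are not reported here. The comparison, members and lists were chosen with earlier results of these data known. Transcript lengths and GC content are from GENCODE M21, promoters from RefSeq GRCm38.p6. Of the list members, cGAS and the matrix genes Cyr61 and Ctgf are not in the table under the symbols used. A count-based test had been planned; it was not run because whole reads could not be shown to be recovered from the CPM.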

Additional observations from a re-analysis of the deposited data

Results flagged for a closer look

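The difference between TIN and GLAD was itself different in hypoxia and in normoxia for 5527 genes, by the interaction in limma at an adjusted p under 0.05. The 15 largest among the named genes are given as the hypoxia difference less the normoxia difference, on the log2 scale, with both differences in that order in brackets. Genes of acute phase, complement and iron binding had a smaller gap in hypoxia: Serpina3n at 3.17 (-0.14 and -3.31), Lcn2 at 2.70 (-0.50 and -3.21) and C4b at 2.68 (-2.63 and -5.31). So did the interferon-induced genes Oas2 at 3.08 (-4.22 and -7.31), Zbp1 at 3.02 (-1.39 and -4.41), Ifi27l2a at 2.69 (-2.90 and -5.58) and Oasl2 at 2.51 (-2.97 and -5.48). The matrix gene Tnn, which encodes tenascin-N, had 3.14 (-2.52 and -5.67), the lipid carrier Apod 2.77 (-3.92 and -6.69), the cell cycle inhibitor Cdkn1a 2.74 (-0.12 and -2.86) and Stc1 2.58 (-0.58 and -3.16).

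Of the negative values, Dlk1 had -3.10 (-3.39 and -0.29), Trpm2 -2.84 (-3.39 and -0.55) and Fam184b -2.76 (-2.66 and 0.10), each with a difference in hypoxia where levels in normoxia were low. Fam184b had 1.5 and 0.851 CPM in TIN hypoxia and 9.93 and 9.86 CPM in GLAD hypoxia, and 0.244 and 0.0984 CPM in TIN normoxia and 0.146 and 0.098 CPM in GLAD normoxia. Slc4a4 had -2.51 (-1.17 and 1.34), a difference whose sign was opposite at the 2 oxygen levels. Serpina3n had 7.52 and 5.7 CPM in TIN hypoxia and 6.98 and 7.58 CPM in GLAD hypoxia, and 0.684 and 0.492 CPM in TIN normoxia and 9.47 and 11 CPM in GLAD normoxia. With the trends on transcript length and GC content removed, its hypoxia difference was called (-0.48, limma adjusted p = 0.023).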

How the results depend on the processing

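Results were recomputed under 15 other settings: no further scaling, relative log expression factors, pseudocounts of 0.1 and 1 CPM, no filter and a filter of 5 CPM, the compared groups alone, no wild-type libraries, no trend on mean level, each hypoxia library of TIN and GLAD left out in turn, a replicate block, and trends on transcript length and GC removed. Libraries left out of a fit still entered the filter and the scaling. Of the 197 genes named by the rule 190 were called, and 190 of the 197 could be tested with the filter of 5 CPM and all 197 under each other setting. None of those tested reversed, 4 (Stc1, Hist2h2be, Flt1 and Mylpf) lost their call under at least 1 setting, and 3 (Serpina3n, Cdkn1a and Pgk1) gained one with the length and GC trends removed. The count of genes at least 2-fold higher, 735, was 488 with the filter of 5 CPM, which tests fewer genes, and 1252 with the length and GC trends removed. The cause of the second was not tested. Over all 800 genes that were named by the rule or in a list, 651 were called. With the length and GC trends removed 44 of these calls were lost, 16 changed sign, 64 were gained and 129 kept their call and moved by over 1.5 times. Under the other settings no sign changed, and 36 to 42 calls were lost with 1 library left out and 24 without a filter. Of the 426 interaction calls 86 were lost and 4 changed sign with those trends removed, 71 to 93 were lost with 1 library left out, and 321 were kept without a filter. Of 225 counts, list medians and interactions 53 moved with the trends removed, 25 of 220 with the filter of 5 CPM and 13 to 18 with 1 library left out. The count of glycolysis members higher, 10, ranged from 5 to 9 with 1 library left out, lowest without GLAD hypoxia replicate A.

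With the library letter as a replicate block 10256 genes were called, against 10180 without it. The deviations of libraries A and B in TIN and GLAD hypoxia had a correlation of 0.064 over 11959 genes, and that of GLAD hypoxia and GLAD normoxia was 0.297. Over all pairs of the 7 groups it ran from -0.153 to 0.297, so the letters were not taken as pairs, and the block changed the call of no named gene. The planned count test was not run. The 2 libraries per group and the floor of 3 reads limit what can be said of genes near 0 in 1 mutant.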

Other observations

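Distance along the chromosome was taken from the end of its most distal annotated gene, not from the chromosome end itself. By this distance, the median difference between TIN and GLAD in hypoxia was -0.04 over 195 genes within 1 Mb, 0.00 over 723 genes from 1 to 5 Mb, 0.03 over 719 genes from 5 to 10 Mb, 0.05 over 2345 genes from 10 to 25 Mb, -0.07 over 3123 genes from 25 to 50 Mb and -0.01 over 8973 genes farther away. In the same order, 56.4%, 58.6%, 60.1%, 64.4%, 62.2% and 63.6% of the genes were called.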
